A study of Homo sapiens with 52 samples.

Results

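The 9 genes described here encode the machinery that displays peptides to CD8+ T cells, and were taken as the rows with the symbols HLA-B, HLA-C, HLA-E, HLA-F, B2M, TAP1, TAP2, TAPBP and NLRC5, 9 of 62696 genes in the tumour line table and present in the THP-1 table of 61209 genes as well. RNA was sequenced from the hepatoblastoma lines HepG2 and Huh6 and from macrophages derived from THP-1, a monocytic leukaemia line, by treatment with PMA. In the tumour lines the groups were PKF118-310 (an inhibitor of Wnt signalling through beta-catenin) at 0.2 and 0.3 uM in HepG2 and at 0.2, 0.3 and 0.4 uM in Huh6, iMDK (an inhibitor of the growth factor midkine) at 5 and 10 uM in both lines, and empty vehicle, all for 48 h. THP-1 macrophages shared a culture for 24 h with HepG2 or Huh6 cells that had received 5 or 10 uM iMDK for 24 h or none, or were kept alone, and were sorted before RNA isolation. Each group had 3 libraries, apart from HepG2 at 0.3 uM PKF118-310 with 1, where the series text gives low RNA as the reason. Each condition is represented by established lines, so a difference between HepG2 and Huh6 is a difference between these lines, and the labels do not say whether the 3 libraries of a group came from separate cultures. P-values therefore measure the spread between libraries.

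MHC class I molecules are a heavy chain, such as HLA-B or HLA-C, bound to the light chain beta-2-microglobulin (B2M). The TAP1-TAP2 transporter carries peptides into the endoplasmic reticulum, tapasin (TAPBP) helps load them, and NLRC5 is a transactivator of class I promoters. The genes are known to respond to interferons, and low class I levels are a known route by which tumour cells escape T cells. HLA-E, which presents leader peptides of other class I chains, is a ligand of NKG2A on natural killer cells, and HLA-F is a less abundant nonclassical chain.

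The 52 libraries held 18284605 to 20043105 counts in HepG2, 18172462 to 19912509 in Huh6 and 12623973 to 16940245 in THP-1, so that 3 counts, the limit a count of 0 allows, equalled 0.15 to 0.164, 0.151 to 0.165 and 0.177 to 0.238 CPM (counts scaled to a common library size, with TMM factors). Limits of this kind cover counting error only. All 12 hepatoblastoma markers were detected in every tumour group. In THP-1, 9 of 10 macrophage markers were detected and CD68 was listed at 0 in every library. TAP1 and TAP2 were listed at 0 in all 52 libraries, as were the interferon-inducible genes IFIT1, IFIT2, IFIT3, IRF1 and CXCL10. The cause was not tested, and no value, fold change or test is given for TAP1 and TAP2. Levels are compared for 1 gene across groups only, since gene lengths were not used.

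In all, 7 members lie in the MHC region of chromosome 6 on GRCh38 (GENCODE 29 spans). HLA-F is at chr6:29722775-29738528 on the plus strand, HLA-E at chr6:30489467-30494205 on the plus strand, HLA-C at chr6:31268749-31272130 and HLA-B at chr6:31269491-31357188 on the minus strand, and TAPBP at chr6:33299694-33314387 on the minus strand. TAP1 is at chr6:32845209-32853978 and TAP2 at chr6:32821833-32838780, both on the minus strand, and the TAP1 span lies within that of PSMB9 on the other strand. B2M is at chr15:44711487-44718877 and NLRC5 at chr16:56989485-57083531, both on the plus strand. The annotated HLA-B span covers most of HLA-C, the 2 genes are close paralogs, and how reads shared between them were counted is not given in the sources used here, so their split is uncertain. HLA-F and NLRC5 overlap antisense genes, and the strand setting of the counting is likewise not given.

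The promoters of HLA-B, HLA-C, B2M and TAPBP are shown because the results turn on these genes. Each is the RefSeq window of 300 bases (GRCh38.p14), 250 before to 50 after the annotated start, 5′ to 3′ on the strand of the gene, at chr6:31357130-31357429, chr6:31272043-31272342, chr15:44711267-44711566 and chr6:33314029-33314328. Capitals mark matches to the motifs searched on both strands.
HLA-B: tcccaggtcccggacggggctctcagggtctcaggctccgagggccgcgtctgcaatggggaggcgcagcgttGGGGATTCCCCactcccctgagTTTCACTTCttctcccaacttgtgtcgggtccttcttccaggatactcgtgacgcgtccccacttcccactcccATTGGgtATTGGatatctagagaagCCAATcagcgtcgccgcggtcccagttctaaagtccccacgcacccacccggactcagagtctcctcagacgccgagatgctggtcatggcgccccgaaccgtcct
HLA-C: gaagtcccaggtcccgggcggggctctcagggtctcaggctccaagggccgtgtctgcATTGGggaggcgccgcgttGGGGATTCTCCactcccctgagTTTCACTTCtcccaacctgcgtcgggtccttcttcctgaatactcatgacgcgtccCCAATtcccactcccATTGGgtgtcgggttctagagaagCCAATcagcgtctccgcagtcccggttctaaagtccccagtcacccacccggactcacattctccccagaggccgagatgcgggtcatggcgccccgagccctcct
B2M: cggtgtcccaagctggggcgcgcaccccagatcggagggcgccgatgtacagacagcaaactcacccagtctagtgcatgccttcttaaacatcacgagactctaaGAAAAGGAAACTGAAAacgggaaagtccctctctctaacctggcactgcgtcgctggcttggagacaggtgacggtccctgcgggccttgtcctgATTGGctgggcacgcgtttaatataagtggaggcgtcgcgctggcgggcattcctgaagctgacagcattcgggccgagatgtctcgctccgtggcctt
TAPBP: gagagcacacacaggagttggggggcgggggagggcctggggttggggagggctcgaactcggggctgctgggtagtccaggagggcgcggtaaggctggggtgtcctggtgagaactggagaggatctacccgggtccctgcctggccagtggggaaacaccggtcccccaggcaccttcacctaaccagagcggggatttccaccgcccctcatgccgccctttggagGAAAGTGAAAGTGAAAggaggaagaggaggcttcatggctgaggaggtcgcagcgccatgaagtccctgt

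Of the 9 members, 7 matched a window in the promoter table and HLA-E and NLRC5 did not. The motif GAANNGAAA was searched first and matched in HLA-B at -155 and HLA-C at -151 from the start, and in TAP2. It occurs in 7.66% of the 35116 promoter windows. A longer form, GAAA followed by 2 bases of any kind and GAAA (3.57% of windows), was added after the promoter letters had been read, and matched in B2M at -144 and -138, in TAPBP at -20 and -14, and in HLA-F, TAP1 and TAP2. The matches within B2M, within TAPBP, within TAP1 and within TAP2 overlap each other. The enhancer A element of class I promoters matched in HLA-B at -177 and HLA-C at -173 (0.0769% of windows), and CCAAT matched in HLA-B, HLA-C, HLA-F, B2M and TAP1 (34.6% of windows). These are matches of letters and describe no binding.

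Vehicle-treated HepG2 cells held more class I RNA than Huh6 cells. HLA-B averaged 110.4 ± 1.69 CPM in HepG2 and 1.95 ± 0.0634 CPM in Huh6 (SD, n = 3 each), and HLA-C averaged 253 ± 10.8 CPM in HepG2 and 7.40 ± 0.891 CPM in Huh6. The gap was smaller for HLA-E, with 157, 151 and 153 CPM in the HepG2 libraries and 78.6, 66.6 and 69.9 CPM in the Huh6 libraries. B2M had 359, 350.1 and 372 CPM in HepG2 and 61.5, 65.4 and 65.0 CPM in Huh6. All of these values separated the lines without overlap. The share of all genes without overlap was not counted, here or in the comparisons below, so a lack of overlap sets no member apart. On the log2 scale HepG2 was above Huh6 by 5.78 ± 0.08 for HLA-B, 5.06 ± 0.06 for HLA-C, 4.14 ± 0.07 for TAPBP, 2.45 ± 0.04 for B2M and 1.06 ± 0.04 for HLA-E (± SE). In edgeR's quasi-likelihood test with Benjamini-Hochberg adjustment over all genes tested, these 5 members, the ones that also passed the filter on low counts within Huh6, were called, where 83% of all genes were (40.4% higher in HepG2). The adjusted p was 3.14e-19 for HLA-E, the smallest of the 5 gaps. HLA-F and NLRC5 passed that filter through HepG2 alone and are given as values only, since Huh6 vehicle libraries held 3, 4 and 0 reads of HLA-F and 1, 2 and 1 of NLRC5, against 141, 124 and 102 reads of HLA-F in HepG2 and 24.8, 26.5 and 22.96 CPM of NLRC5.

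Other genes of the pathway followed the lines unevenly, in a comparison where 83% of all genes were called (40.4% higher in HepG2). Of peptide supply genes, the 4 that were also tested within Huh6 were all higher in HepG2, among them the PA28 activator subunit PSME1 by 2.76 ± 0.04 and the immunoproteasome subunit PSMB10 by 2.49 ± 0.31 on the log2 scale, against a median of -0.03 over all genes. PSMB8 and PSMB9 passed the filter through HepG2 alone and were not counted, PSMB8, another immunoproteasome subunit, averaging 34.6 ± 4.37 CPM in HepG2 and being listed at 0 in each Huh6 vehicle library. Of the loading chaperones, 2 of 4 were higher (TAPBPL by 1.64 ± 0.16, CALR by 0.17 ± 0.03) and 2 lower (CANX by -0.48 ± 0.03, PDIA3 by -0.23 ± 0.03). Of the class I transcription factors 5 of 6 were higher and none lower, among them RELA (2.15 ± 0.05), RFX5 (1.85 ± 0.08) and IRF2 (1.61 ± 0.07).

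**Figure D1:**
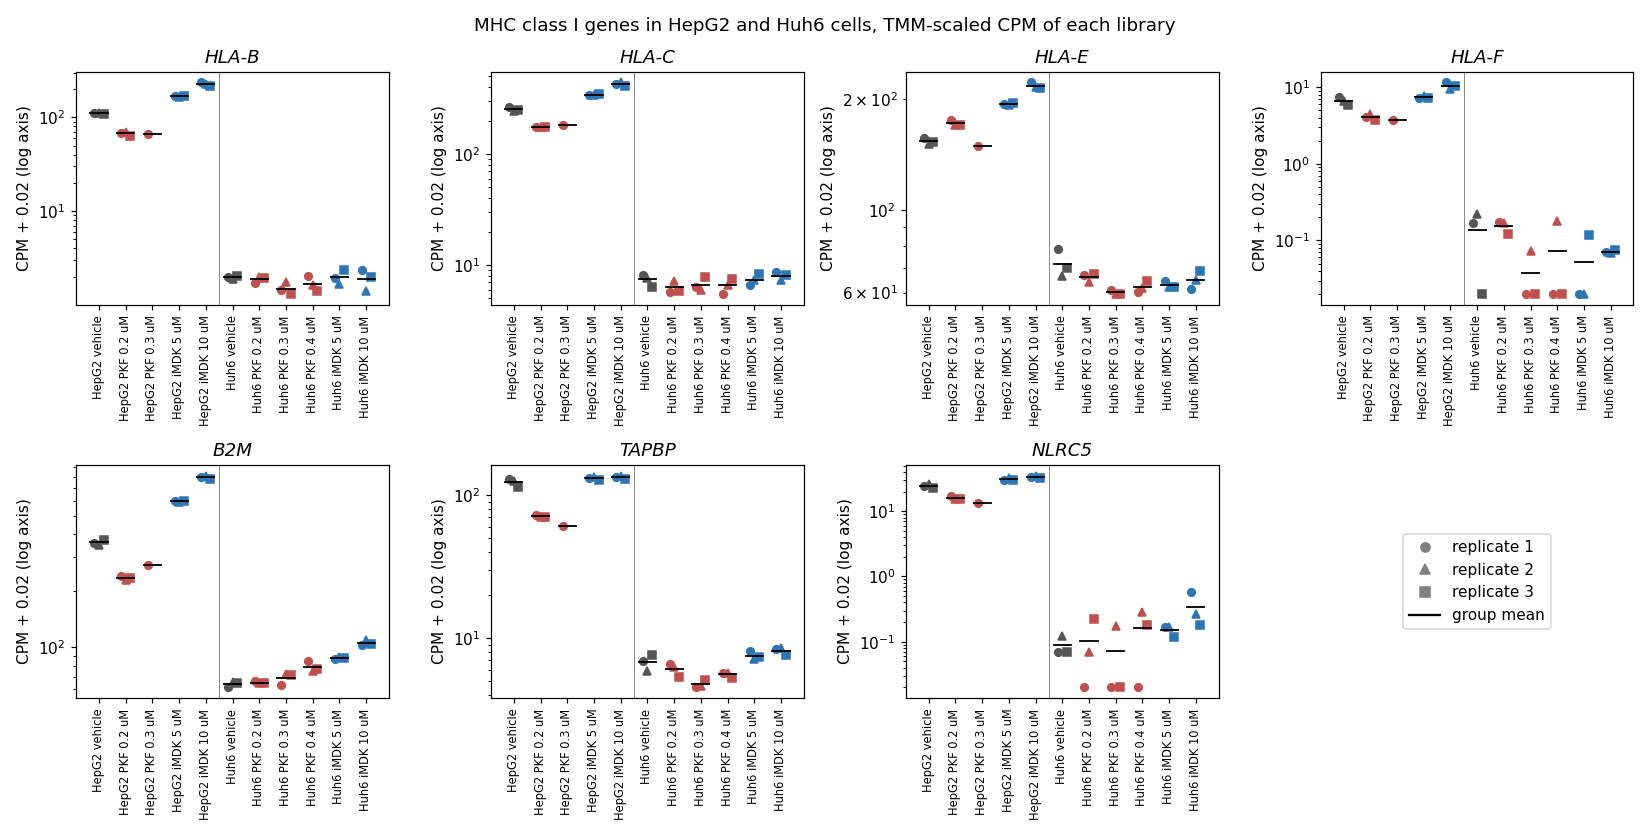
TMM-scaled CPM of the 7 detected members in each HepG2 and Huh6 library (log axis, 0.02 CPM added so that 0 can be drawn); points are libraries, marked by replicate number, and lines are group means, with vehicle at the left of each line. HepG2 points lie above Huh6 points in every panel, and iMDK points lie above vehicle points for HLA-B, HLA-C, HLA-E and B2M in HepG2.

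In HepG2, class I RNA was higher with iMDK and rose further between its doses. B2M had 359, 350.1 and 372 CPM with vehicle, 598, 586 and 601 CPM at 5 uM and 800.4, 813 and 783 CPM at 10 uM. HLA-B had 112, 111 and 108 CPM with vehicle, 169.5, 165 and 168 CPM at 5 uM and 235, 228 and 218 CPM at 10 uM. HLA-C had 266, 246 and 248 CPM with vehicle, 343, 340.2 and 347 CPM at 5 uM and 427, 442 and 408 CPM at 10 uM. For these 3 genes no library of one group overlapped another group, and the share of all genes that do so was not counted. The nonclassical chain HLA-E had 157, 151 and 153 CPM with vehicle, 194, 193 and 195 CPM at 5 uM and 221, 215 and 214 CPM at 10 uM. The transactivator NLRC5 had 24.8, 26.5 and 22.96 CPM with vehicle, 29.9, 32.6 and 29.99 CPM at 5 uM and 33.6, 35.1 and 32.5 CPM at 10 uM. HLA-E separated the 3 groups as well, while the 10 uM and 5 uM libraries of NLRC5 overlapped each other at 32.5 and 32.6 CPM. In bulk libraries, fewer cells of a type and less RNA per cell cannot be told apart.

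At 5 uM 5 of 7 tested members were called higher, against 47.3% of all genes in either direction (23.2% higher), led by B2M at 0.72 ± 0.03 (adjusted p = 2.46e-22, edgeR) and HLA-B at 0.60 ± 0.04, with a member median of 0.34 against 0.02 over all genes. HLA-F at 0.16 ± 0.13 (adjusted p = 0.319) and TAPBP at 0.09 ± 0.04 (0.0539) did not pass, and TAPBP passed without vehicle replicate 1 (0.13) or 2 (0.11) or 5 uM replicate 3 (0.11). At 10 uM all 7 tested members passed as higher, where 54.6% of all genes passed in either direction and 27.3% as higher. The log2 fold changes over vehicle were 1.15 ± 0.03 for B2M (adjusted p = 2.96e-29, edgeR), 1.04 ± 0.04 for HLA-B, 0.75 ± 0.03 for HLA-C, 0.65 ± 0.12 for HLA-F, 0.50 ± 0.03 for HLA-E, 0.44 ± 0.07 for NLRC5 and 0.11 ± 0.04 for TAPBP (0.0167), with a median of 0.65 against 0.02 over all genes. The loading factor TAPBP overlapped between groups, with 134, 137 and 129 CPM at 10 uM against 129.6, 125 and 114 CPM with vehicle. Its call was lost without vehicle replicate 3 (0.07, adjusted p = 0.19) or 10 uM replicate 2 (0.10, 0.083).

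Between the doses the step from 5 to 10 uM was called for 5 of 7 members, against 13.4% of all genes (6.5% higher). It was 0.49 ± 0.12 for HLA-F, 0.44 ± 0.04 for HLA-B, 0.43 ± 0.03 for B2M, 0.31 ± 0.03 for HLA-C and 0.16 ± 0.03 for HLA-E. HLA-F had 11.5, 9.28 and 10.4 CPM at 10 uM against 7.16, 7.64 and 7.28 CPM at 5 uM, with no overlap. NLRC5 at 0.13 ± 0.06 (adjusted p = 0.207) and TAPBP at 0.02 ± 0.04 (0.832) were not called.

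Genes induced by interferons were among those higher in the same libraries. Several of the 11 tested interferon-stimulated genes passed the filter on low counts only through iMDK libraries. No count or median over them is therefore given for iMDK against vehicle. Those named here were chosen after their values were seen. ISG15, a ubiquitin-like modifier, averaged 796 ± 48.4 CPM at 10 uM and 26.2 ± 0.385 CPM with vehicle. The RNA sensor IFIH1 averaged 82.8 ± 3.37 CPM at 10 uM and 18.8 ± 0.875 CPM with vehicle. The antiviral RSAD2 averaged 130.5 ± 5.34 CPM at 10 uM and was listed at 0 in each vehicle library. Between the doses, 10 against 5 uM, all 11 rose, where 6.5% of all genes were called higher. Since several of the 11 were tested only because of their iMDK libraries, nothing is read from that count. At 10 uM against vehicle, 54.6% of all genes were called (27.3% higher), which is the background for the lists that follow. Of interferon signalling genes, 6 of 9 rose and 1 fell at 10 uM, with changes from -0.35 to 2.02 on the log2 scale. The kinase JAK2, not the largest of them, rose by 1.54 ± 0.10. Of the peptide supply genes 3 of 6 were higher (PSMB9 by 0.47 ± 0.14, PSMB8 by 0.17 ± 0.07, PSME2 by 0.09 ± 0.03), with a list median of 0.03. Of the loading chaperones 1 of 4 was lower and none higher, namely CALR, which fell by 0.32 on the log2 scale. Of the transcription factors 2 of 6 rose (RELA by 0.21 ± 0.04) and 3 fell (RFXAP, IRF2 and NFKB1).

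PKF118-310 at 0.2 uM lowered most class I members in HepG2. HLA-B had 67.9, 69.9 and 63.8 CPM against 112, 111 and 108 CPM with vehicle, and B2M had 238, 228 and 234 CPM against 359, 350.1 and 372 CPM. TAPBP had 72.8, 70.0 and 70.3 CPM against 129.6, 125 and 114 CPM with vehicle. The groups did not overlap for these genes. HLA-C had 173, 177 and 175 CPM at 0.2 uM against 266, 246 and 248 CPM with vehicle, and HLA-F and NLRC5 did not overlap vehicle either, with 4.07, 4.37 and 3.70 CPM of HLA-F against 7.47, 6.49 and 5.80 CPM and with 16.8, 15.4 and 15.4 CPM of NLRC5 against 24.8, 26.5 and 22.96 CPM. HLA-E moved the other way, with 175, 170.4 and 170.3 CPM at 0.2 uM against 157, 151 and 153 CPM with vehicle. In all, 6 of 7 members were called lower and HLA-E higher, where 67.7% of all genes were called (33.4% lower, 34.3% higher). The changes were -0.79 ± 0.04 for TAPBP, -0.72 ± 0.04 for HLA-B (adjusted p = 1.23e-18, edgeR), -0.70 ± 0.14 for HLA-F, -0.64 ± 0.07 for NLRC5, -0.63 ± 0.03 for B2M, -0.53 ± 0.03 for HLA-C and 0.16 ± 0.03 for HLA-E (4.52e-05), with a median of -0.64 against 0.01 over all genes. The HepG2 library at 0.3 uM had 66.3 CPM of HLA-B, 184 of HLA-C, 149 of HLA-E, 3.67 of HLA-F, 274 of B2M, 61.2 of TAPBP and 13.3 of NLRC5, which were differences from the vehicle mean of -0.74, -0.46, -0.04, -0.83, -0.40, -1.01 and -0.90 on the log2 scale. It has no replicate and no test, and without TMM scaling the HLA-E difference was 0.013.

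Other lists moved at 0.2 uM in HepG2 as well, where 67.7% of all genes were called (33.4% lower, 34.3% higher). All 6 genes of peptide supply fell, with a median of -0.93, among them PSMB9 (-1.57 ± 0.18) and ERAP1 (-1.04 ± 0.07). All 4 loading chaperones fell, among them CALR (-1.41 ± 0.03) and TAPBPL (-0.59 ± 0.12). Of the transcription factors 5 of 6 fell, RFXAP by 1.06 ± 0.10 on the log2 scale, and RELA rose by 0.61 ± 0.04. Of interferon signalling genes 3 of 9 rose (JAK2 by 1.99 ± 0.09) and 5 fell (IFNGR1, the interferon-gamma receptor chain, by 0.93 on the log2 scale). Interferon-stimulated genes went both ways: of 11 tested, 5 rose and 3 fell, with changes from -1.55 to 2.17 on the log2 scale. Several of the 11 passed the filter on low counts only through iMDK libraries. Among them ISG15 averaged 36.9 ± 1.56 CPM at 0.2 uM and 26.2 ± 0.385 CPM with vehicle. The summed level of the 12 hepatoblastoma markers, which include the liver proteins ALB, AFP and TTR, was 7451 to 8179 CPM at 0.2 uM and 28361 to 30767 CPM with vehicle, and its part in these results was not tested.

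**Figure D2:**
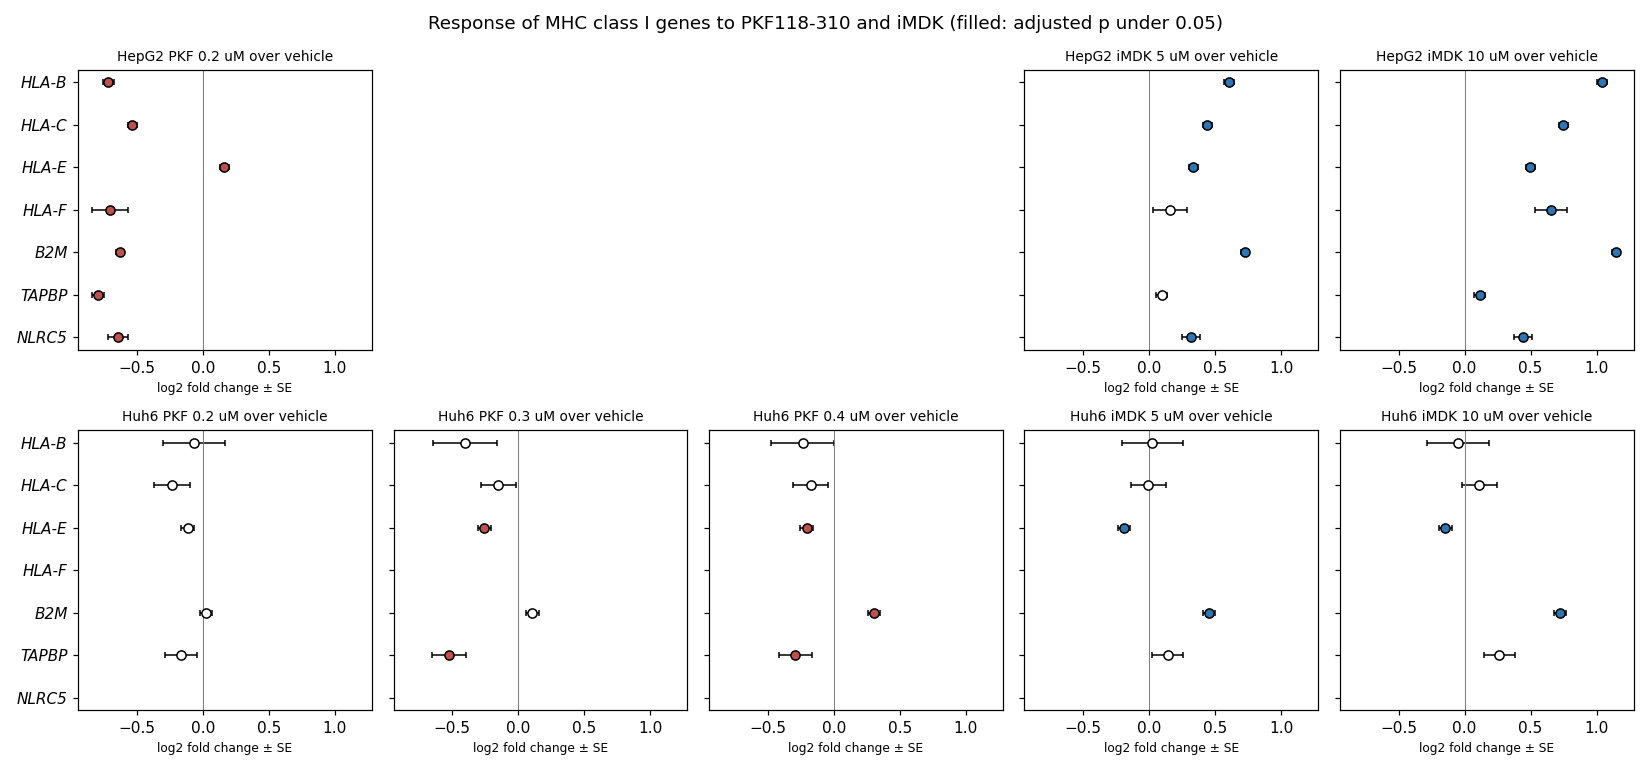
Log2 fold change over vehicle ± SE of each tested member, HepG2 in the top row and Huh6 in the bottom row, PKF118-310 in red and iMDK in blue; filled points have an adjusted p under 0.05. HepG2 at 0.3 uM PKF118-310 has 1 library and is not drawn, and HLA-F and NLRC5 were not tested in Huh6; at 10 uM iMDK the HepG2 points run from 0.11 to 1.15.

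In Huh6 the filter on low counts left 5 members, HLA-B, HLA-C, HLA-E, B2M and TAPBP, and B2M rose with both iMDK doses. It had 61.5, 65.4 and 65.0 CPM with vehicle, 86.9, 88.9 and 87.5 CPM at 5 uM and 103, 109.6 and 104 CPM at 10 uM, and no library of one group overlapped another group. HLA-B had 1.95, 1.89 and 2.01 CPM with vehicle, 1.92, 1.65 and 2.36 CPM at 5 uM and 2.31, 1.39 and 1.95 CPM at 10 uM. HLA-C had 8.10, 7.70 and 6.39 CPM with vehicle, 6.56, 7.31 and 8.22 CPM at 5 uM and 8.58, 7.28 and 8.15 CPM at 10 uM. Both heavy chains overlapped vehicle at both doses. The 2 members under the filter stayed at a few reads: NLRC5 had 1, 2 and 1 reads with vehicle, 3, 3 and 2 at 5 uM and 11, 5 and 3 at 10 uM, and HLA-F had 3, 4 and 0 reads with vehicle, 0, 0 and 2 at 5 uM and 1, 1 and 1 at 10 uM.

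B2M rose by 0.46 ± 0.05 at 5 uM (adjusted p = 3.16e-11, edgeR) and by 0.72 ± 0.04 at 10 uM (5.1e-18), and by 0.27 ± 0.04 between the doses (3.8e-06). HLA-E had 78.6, 66.6 and 69.9 CPM with vehicle, 64.7, 61.9 and 61.9 CPM at 5 uM and 61.2, 64.9 and 68.4 CPM at 10 uM, where vehicle replicate 1 was the highest library. On the log2 scale it fell by 0.19 ± 0.05 at 5 uM (0.00127) and by 0.15 ± 0.05 at 10 uM (0.00898). Without vehicle replicate 1 the change in HLA-E was -0.12 at 5 uM (0.0619) and -0.07 at 10 uM (0.232), and without 10 uM replicate 1 it was -0.11 (0.0834). TAPBP at 10 uM, 0.26 ± 0.12 (0.0558), was not called, and passed without vehicle replicate 3 (0.35) or 10 uM replicate 3 (0.31). Thus 2 of 5 members were called at 5 uM, where 35.6% of all genes were (17.3% higher, 18.3% lower), 2 of 5 at 10 uM, where 52.1% were (26% higher, 26.1% lower), and 1 of 5 between the doses, where 24.9% were (12.7% higher). The 95% intervals of HLA-B and HLA-C at 10 uM ran from -0.52 to 0.42 and from -0.15 to 0.37 on the log2 scale.

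In Huh6 at 10 uM iMDK, the interferon-stimulated ISG15 rose by 1.37 ± 0.08 on the log2 scale. The helicase DDX60 had 22 to 43 reads a library at 10 uM and 0 to 2 with vehicle, so it passed the filter through treated libraries. Of all genes 52.1% were called at 10 uM (26% higher, 26.1% lower), which is the background for the lists that follow. Among peptide supply genes 3 of 4 fell (ERAP1 by 0.70 ± 0.06, PSME1 by 0.38 ± 0.05 and PSME2 by 0.29 ± 0.06 on the log2 scale). Among chaperones 3 of 4 fell (CALR by 0.55 ± 0.02, PDIA3 by 0.43 ± 0.02 and CANX by 0.13 ± 0.02). Of 8 interferon signalling genes 3 rose and 2 fell, and of 6 transcription factors 1 rose (RELA, 0.29 ± 0.06) and 2 fell.

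PKF118-310 left the Huh6 heavy chains HLA-B and HLA-C uncalled at every dose. At 0.3 uM HLA-B had 1.29 to 1.71 CPM (25 to 33 reads), below the 1.89 to 2.01 CPM (37 to 40 reads) with vehicle. Its log2 fold change was -0.40 ± 0.24 (adjusted p = 0.234, edgeR), with a 95% interval from -0.90 to 0.09. For HLA-C at 0.3 uM the interval ran from -0.42 to 0.12. At 0.4 uM the intervals ran from -0.72 to 0.25 for HLA-B and from -0.45 to 0.10 for HLA-C. At 0.2 uM none of 5 members was called by edgeR, where 2.24% of all genes were, 1 had an unadjusted p under 0.05, DESeq2 called 0, and the 95% intervals of the members lay between -0.54 and 0.40. B2M had 61.5, 65.4 and 65.0 CPM with vehicle, 66.1, 64.5 and 64.5 CPM at 0.2 uM, 63.2, 71.9 and 71.6 CPM at 0.3 uM and 85.1, 74.6 and 77.1 CPM at 0.4 uM, where the 0.4 uM libraries lay above all others. TAPBP had 6.95, 5.91 and 7.55 CPM with vehicle, 6.59, 6.27 and 5.36 CPM at 0.2 uM, 4.52, 4.62 and 5.04 CPM at 0.3 uM and 5.73, 5.69 and 5.28 CPM at 0.4 uM. HLA-E had 78.6, 66.6 and 69.9 CPM with vehicle, 67.1, 64.2 and 67.5 CPM at 0.2 uM, 61.1, 59.5 and 59.6 CPM at 0.3 uM and 60.3, 61.8 and 64.6 CPM at 0.4 uM. For HLA-E and TAPBP the 0.3 and 0.4 uM libraries all lay below vehicle.

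At 0.3 uM 2 of 5 members were called in Huh6, both lower, where 28.5% of all genes were called (13.5% lower): TAPBP by -0.53 ± 0.13 (adjusted p = 0.00129, edgeR) and HLA-E by -0.26 ± 0.05 (4.51e-05). B2M was 0.11 ± 0.05 (0.083), and passed without 0.3 uM replicate 1 (0.17, 0.0074). At 0.4 uM 3 of 5 were called, where 56.8% of all genes were (28.9% higher, 27.9% lower): B2M by 0.30 ± 0.05 (3.06e-07), HLA-E by -0.21 ± 0.05 (0.000313) and TAPBP by -0.29 ± 0.12 (0.0447). The TAPBP call was lost in DESeq2 (0.127), with no filter on low counts, and without vehicle replicate 1 (-0.27) or 3 (-0.21) or any of the 0.4 uM replicates (-0.31, -0.30 and -0.25). Between 0.4 and 0.2 uM 1 of 5 was called, B2M by 0.28 ± 0.05 (1.62e-06), where 54.6% of all genes were (28.1% higher). At 0.4 uM 3 of 4 peptide supply genes fell (PSME1 by 0.56 ± 0.05 on the log2 scale) and PSMB10 rose by 1.24 ± 0.40, while 3 of 4 chaperones fell, CALR by 0.54 ± 0.02.

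The size of the responses differed between the lines, tested as the HepG2 response minus the Huh6 response. For 10 uM iMDK, HLA-B was 227 ± 8.69 CPM against 110.4 ± 1.69 CPM with vehicle in HepG2, and 1.88 ± 0.465 CPM against 1.95 ± 0.0634 CPM in Huh6 (SD, n = 3 each). The difference in log2 fold change was 1.14 ± 0.19 for HLA-B (adjusted p = 3.05e-06, edgeR), 0.69 ± 0.06 for HLA-E, 0.68 ± 0.11 for HLA-C and 0.47 ± 0.05 for B2M, and TAPBP at -0.11 ± 0.11 (0.493) was not called. Of these 5 members 4 were called, where 41.7% of all genes were (21% higher, 20.7% lower). HLA-F and NLRC5 were not counted, since they passed the filter in these fits through HepG2 alone. NLRC5, with -1.68 ± 0.69 (0.0451), rests on 1 to 11 Huh6 reads a library, and its adjusted p was at or above 0.05 in DESeq2, with no filter, and without Huh6 vehicle replicate 1 or 3 (-1.54 each), Huh6 10 uM replicate 1 (-1.07), HepG2 vehicle replicate 2 (-1.64), or HepG2 10 uM replicate 1 (-1.68) or 3 (-1.66).

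For 5 uM iMDK 4 of the 5 members differed between the lines, where 32.6% of all genes did (15.6% higher): HLA-B by 0.61 ± 0.17, HLA-E by 0.55 ± 0.06, HLA-C by 0.47 ± 0.11 and B2M by 0.29 ± 0.05 (adjusted p = 4.39e-06, edgeR). The HLA-B call was lost without Huh6 5 uM replicate 2 (0.49, 0.0548). For 0.2 uM PKF118-310 all 5 differed, where 56.3% of all genes did (28.3% higher, 28.1% lower): HLA-B and B2M by -0.65 each (± 0.19 and ± 0.05), TAPBP by -0.63 ± 0.13, HLA-C by -0.30 ± 0.11 and HLA-E by 0.28 ± 0.06. The HLA-C difference (adjusted p = 0.0206, edgeR) was lost without Huh6 vehicle replicate 3 (-0.21, 0.136) or Huh6 0.2 uM replicate 2 (-0.19, 0.204).

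**Figure D3:**
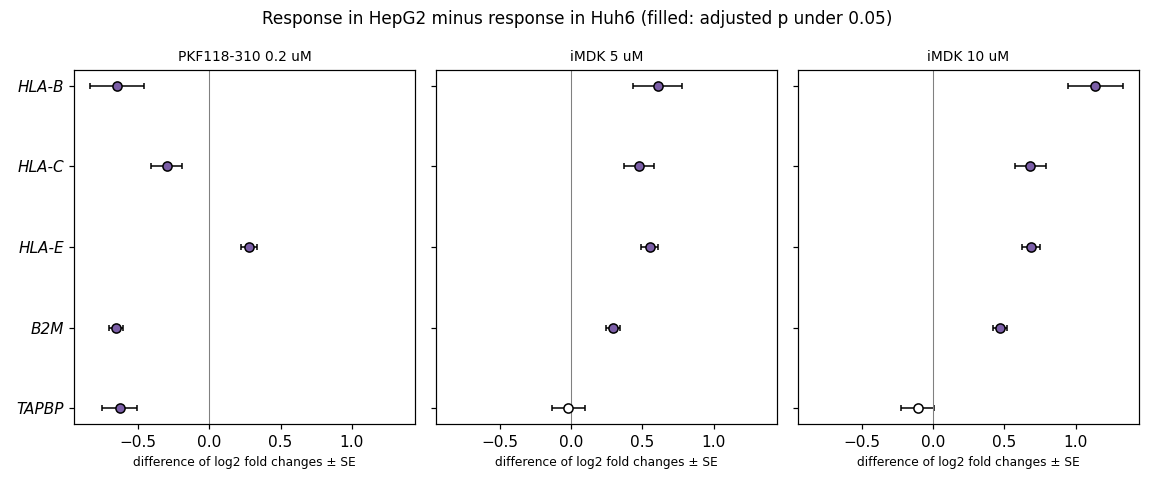
Difference between the HepG2 and Huh6 log2 fold changes over vehicle ± SE for HLA-B, HLA-C, HLA-E, B2M and TAPBP at 0.2 uM PKF118-310, 5 uM iMDK and 10 uM iMDK; filled points have an adjusted p under 0.05. HLA-B, HLA-C and B2M lie below 0 for PKF118-310 and above 0 for iMDK, while HLA-E lies above 0 for all 3.

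The genes whose log2 CPM followed B2M most closely differed by cell line. In HepG2 (13 libraries) they were IFIH1 (r = 0.995), SARAF (0.994), NEU1 (0.994), HLA-C (0.994) and BST2 (0.992), and HLA-B had r = 0.991. In Huh6 (18 libraries) they were SESN2 (0.981), GNPDA1 (0.972), STX3 (0.972), TXN (0.971) and FECH (0.970), while HLA-C had r = 0.367 and HLA-B 0.115. In THP-1 (21 libraries) they were EEF1A1 (0.944), TMEM59 (0.941), EIF3H (0.941), ITM2B (0.938) and LAPTM4A (0.933), and HLA-C had r = 0.933, HLA-B 0.890, TAPBP -0.343 and NLRC5 -0.747. These are Pearson correlations across libraries that share treatment groups, given as a description. In THP-1 they also hold replicate differences. Replicate 1 was the lowest library in all 7 groups for HLA-B and HLA-C and in 6 for B2M, and the highest in all 7 for TAPBP and NLRC5.

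THP-1 macrophages held the class I genes other than TAP1 and TAP2 in every culture, and untreated HepG2 partners went with small changes in a few. HLA-E had 602, 679.7 and 732 CPM beside untreated HepG2 and 499.9, 585 and 566 CPM in THP-1 alone. NLRC5 had 49.8, 37.9 and 40.6 CPM beside HepG2 and 59.8, 56.1 and 52.8 CPM alone, and the groups overlapped for neither gene. The heavy chain HLA-B had 1449, 1859.7 and 1907 CPM beside HepG2 and 1194, 1576 and 1525 CPM alone, and B2M had 2599.6, 3075 and 3749 CPM beside HepG2 and 2248, 2939 and 2885 CPM alone, both with overlap. Replicate 1 was the lowest library of all 7 THP-1 groups for HLA-B, HLA-C and HLA-F and the highest of all 7 for TAPBP and NLRC5. The THP-1 fits below have no replicate block unless stated, so such replicate differences are part of their spread. More members were called beside untreated HepG2 with a block, as given further on.

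Against THP-1 alone, 2 of 7 members were called beside HepG2, where 21.6% of all genes were (12% higher, 9.68% lower): HLA-E by 0.29 ± 0.09 (adjusted p = 0.0274, edgeR) and NLRC5 by -0.39 ± 0.13 (0.0346). The HLA-E call was lost without alone replicate 1 (0.23) or HepG2 replicate 2 (0.28) or 3 (0.24), and the NLRC5 call without any alone replicate (-0.34, -0.39 and -0.43) or HepG2 replicate 2 (-0.31) or 3 (-0.34). The sorted THP-1 libraries beside untreated HepG2 also held 2509 to 3039 CPM of the 12 hepatoblastoma markers, against 57.3 to 70.0 CPM in THP-1 alone, where AFP, APOB, FGB and TTR were at 0. By those markers the share of tumour reads was 8.32 to 10.8% beside untreated HepG2 and 0.467 to 2.57% beside untreated Huh6. With that share of HepG2 counts subtracted, HLA-B (0.47, adjusted p = 0.0387, edgeR), HLA-C (0.47, 0.0356), HLA-E (0.45, 0.00129) and B2M (0.40, 0.0426) were called and NLRC5 (-0.28, 0.155) was not. The subtracted profile was that of the vehicle-treated HepG2 libraries (48 h, without THP-1). The error of the share and of that profile is not part of these p-values. Of other genes, 3 of 6 MHC class II genes were higher beside HepG2 with the tumour reads left in. They were the invariant chain CD74 (0.58 ± 0.10), HLA-DMB (1.18 ± 0.31) and the class II transactivator CIITA (1.52 ± 0.49). The interferon-inducible GTPase GBP2 was higher by 1.63 ± 0.19 in the same counts. The part of tumour reads in these differences was not tested.

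Beside untreated Huh6, none of 7 members was called against THP-1 alone, where 1.83% of all genes were. No member had an unadjusted p under 0.05, DESeq2 called 0, and the 95% intervals lay between -0.65 and 0.38. Same-numbered samples deviated together in this comparison (r 0.213 to 0.503). These fits and intervals hold no replicate block, so the shared replicate difference is part of their spread. Between the partners, HLA-E was higher beside HepG2, with 602, 679.7 and 732 CPM, than beside Huh6, with 466, 548 and 528 CPM, by 0.39 ± 0.09 (adjusted p = 0.00553, edgeR). NLRC5 was lower beside HepG2, with 49.8, 37.9 and 40.6 CPM, than beside Huh6, with 60.9, 50.2 and 60.2 CPM, by -0.42 ± 0.13 (0.0326). The groups did not overlap for either gene, and 2 of 7 members were called where 16.7% of all genes were (9.13% higher, 7.55% lower). The NLRC5 call was lost without HepG2 replicate 2 (-0.33) or 3 (-0.36) or Huh6 replicate 1 (-0.35) or 3 (-0.36), and with the tumour reads subtracted (-0.33, 0.0982), while HLA-E was then 0.53 (0.000455). With the replicate number as a block, HLA-B (0.23, 0.00236), HLA-C (0.30, 0.000374), HLA-E (0.39, 1.1e-05), HLA-F (0.43, 0.0177) and NLRC5 (-0.42, 0.000254) were called.

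**Figure D4:**
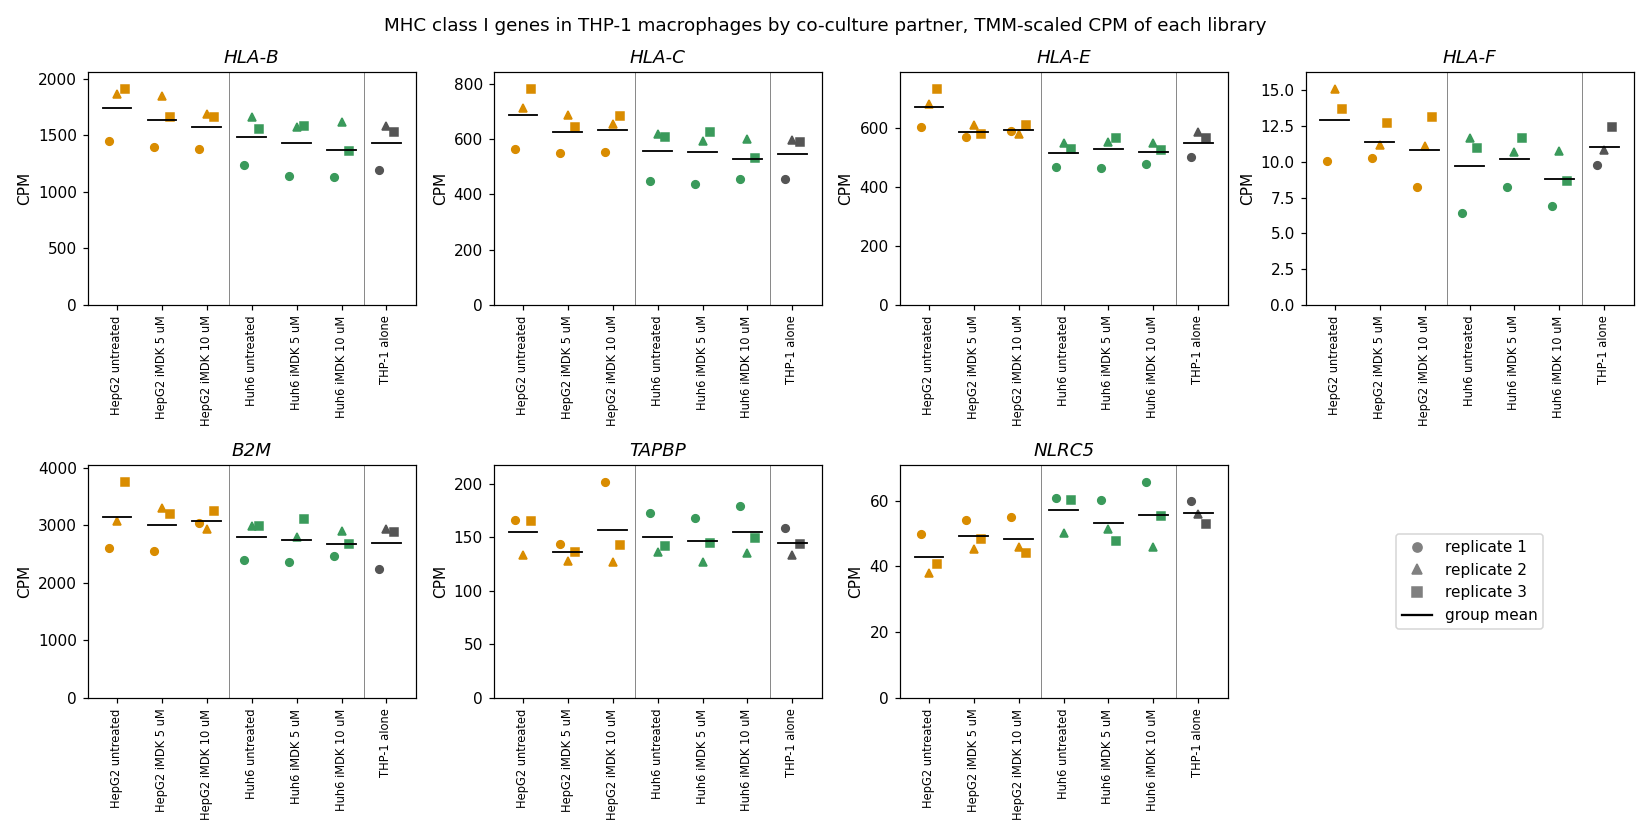
TMM-scaled CPM of the 7 detected members in each THP-1 library (linear axis); points are libraries, marked by replicate number, and lines are group means, with THP-1 alone at the right. HLA-E is highest beside untreated HepG2 and NLRC5 is lowest there, and replicate 1 sits below replicates 2 and 3 for HLA-B, HLA-C and HLA-F.

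When the tumour partner had received iMDK, no member was called in THP-1 in edgeR without a replicate block. HLA-E had 602, 679.7 and 732 CPM beside untreated HepG2, 568, 611 and 579 CPM beside HepG2 given 5 uM and 590.3, 580.3 and 611 CPM beside HepG2 given 10 uM. Beside Huh6 the HLA-E values were 466, 548 and 528 CPM untreated, 465, 554 and 564 CPM at 5 uM and 479, 550.5 and 526 CPM at 10 uM. The 3 groups overlapped for each partner. In edgeR 0 of 7 members were called in each of the 4 comparisons, where 0.0903% (HepG2, 5 uM), 3.34% (HepG2, 10 uM), 0.0129% (Huh6, 5 uM) and 0.0581% (Huh6, 10 uM) of all genes were. At an unadjusted p under 0.05 there was 1 member for HepG2 at 5 uM and 0 in the others, and DESeq2 called 0 in each. The 95% intervals over the members ran from -0.64 to 0.48 and from -0.72 to 0.45 for HepG2 at 5 and 10 uM, and from -0.39 to 0.55 and from -0.60 to 0.34 for Huh6. With the replicate block HLA-E was called beside HepG2 given 10 uM (-0.17, adjusted p = 0.0482). The tumour read share was 4.97 to 6.78% and 2.05 to 4.43% beside HepG2 given 5 and 10 uM, lower than beside untreated HepG2. With tumour reads subtracted 0 members were called at either dose. With subtraction and the replicate block together, an alternative chosen after seeing the data, HLA-C (-0.19, adjusted p = 0.0492, edgeR) and HLA-E (-0.26, 0.00834) were called lower at 5 uM. In that fit HLA-B (-0.26, adjusted p = 0.00278, edgeR), HLA-C (-0.22, 0.0133) and HLA-E (-0.28, 0.00229) were called lower at 10 uM. The iMDK responses of the members differed between partner lines in 0 of 7 cases at either dose, where 0.0129% and 0.0323% of all genes were called, 0 had an unadjusted p under 0.05 and DESeq2 called 0, with 95% intervals from -0.92 to 0.69 and from -0.78 to 0.60.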

How the data were processed

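RNA was poly(A)-selected and made into directional libraries, per the labels' protocols. Reads were aligned to GRCh38 with STAR 2.7.3a and processed with SAMtools 1.16.1, featureCounts and edgeR 3.36, per the submitters' processing notes. The release of the annotation and whether counting used strand are not stated there. The deposited values are raw counts per gene, as whole numbers, in 1 table for the tumour lines and 1 for THP-1, and tests were run within each table. For these counts edgeR 4.0.16 was used in R 4.3.3 with limma 3.58.1: TMM scaling, filterByExpr by group, the quasi-likelihood F test (two-sided) on a model of group means per line, and Benjamini-Hochberg adjustment over all 15451 (HepG2), 15029 (Huh6) or 15500 (THP-1) genes tested, with a threshold of 0.05. Line differences were fitted on the 12 libraries concerned and the vehicle comparison on 6. A standard error is the log2 fold change over the root of F. DESeq2 1.42.0 was an alternative, and the steps were tested on simulated data. All members are described. Genes of the other lists, interferon-stimulated genes apart, were named from among the 4 with the largest called change per list, not always all 4. Named neighbours are the 5 genes with the highest correlation with B2M. The members and lists were chosen with earlier results of these data known. Replicate numbers come from the labels; same-numbered samples deviated together (every r over 0.1) in 5 THP-1 comparisons between 2 groups, among them HepG2 against Huh6 partners (r 0.112 to 0.481).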

Additional observations from a re-analysis of the deposited data

Results flagged for a closer look

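The response to a drug differed between HepG2 and Huh6, by a test of the difference itself (edgeR, adjusted over all genes), for 14 values. Of all genes, 56.3% (0.2 uM PKF118-310), 32.6% (5 uM iMDK) and 41.7% (10 uM iMDK) differed by that test. The 14 values are given as HepG2 minus Huh6 log2 fold change. For 0.2 uM PKF118-310 they were -0.65 for HLA-B, -0.30 for HLA-C, 0.28 for HLA-E, -0.65 for B2M and -0.63 for TAPBP. For 5 uM iMDK they were 0.61 for HLA-B, 0.47 for HLA-C, 0.55 for HLA-E and 0.29 for B2M. For 10 uM iMDK they were 1.14 for HLA-B, 0.68 for HLA-C, 0.69 for HLA-E, 0.47 for B2M and -1.68 for NLRC5, the last resting on 1 to 11 reads in the Huh6 libraries. NLRC5 passed the filter on low counts through HepG2 alone, and its call was lost in 6 of 12 fits that left out 1 library, in DESeq2 and with no filter, so nothing is read from it. At 10 uM iMDK the B2M libraries were above vehicle in both lines, whereas those of HLA-E lay above vehicle in HepG2 and overlapped it in Huh6.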

How the results depend on the processing

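The comparisons were recomputed with RLE size factors, DESeq2, no filter on low counts, each library left out in turn and the replicate number as a block, and in THP-1 with the estimated tumour reads subtracted. Subtraction with the block was chosen after seeing the data. Of 60 values called in edgeR, 692 recomputed values kept their direction in every case and 37 lost the call; of 94 uncalled values, 1182 were recomputed, 102 changed sign and 34 passed. The number of members called in THP-1 beside untreated HepG2 against THP-1 alone was 2, and became 4 with no filter (3 higher, 1 lower), 5 with the replicate block, 4 with tumour reads subtracted and 5 with both. Beside HepG2 against beside Huh6 it was 2, and became 5 with the replicate block, 1 with subtraction and 6 with both. Beside HepG2 given 5 uM iMDK it was 0 and became 2 with subtraction and block, and at 10 uM it was 0 and became 1 with the block and 3 with both. In THP-1, 58 of 63 pairs of same-numbered samples had r over 0.1, so fits without the block kept shared replicate differences in their spread. Untreated HepG2 against THP-1 alone missed the rule of every r over 0.1 narrowly (r 0.099 to 0.569, 4 of 6 samples closest to their own number). Huh6 at 10 uM missed it too (0.062 to 0.546, 3 of 6). The numbers did not pair the samples in any tumour line comparison by that rule. There the block made TAPBP pass in HepG2 at 5 uM iMDK (0.10). The block changed no other member count by more than 1.5 times. Without TMM scaling the 0.3 uM PKF118-310 library of HepG2 differed from vehicle by -0.40 for HLA-C and -0.35 for B2M, and HLA-E changed sign (0.013, against -0.039 with TMM). The causes of these shifts were not tested.

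Uncalled values changed sign as follows. TAPBP in THP-1 beside HepG2 given 10 uM iMDK was -0.0014 with no filter, -0.037 with subtraction and -0.054 with both subtraction and block. HLA-E beside Huh6 given 10 uM was -0.0068 with subtraction and -0.0070 with both. The partner difference of B2M at 10 uM was -0.0013 with no filter, -0.072 with subtraction and -0.058 with both. Leaving out 1 library in turn gave 1 to 2 called members for Huh6 at 5 uM iMDK, 1 to 3 at 10 uM, 0 to 2 for THP-1 beside HepG2 against alone and 1 to 2 against beside Huh6, with the spread pooled over all groups where an arm kept 2 libraries. The log2 fold changes that changed sign without 1 library are given from lowest to highest. For PKF118-310 at 0.2 uM over vehicle in Huh6, it ran -0.0035 to 0.041 for B2M. For 0.4 over 0.2 uM PKF118-310 in Huh6, it ran -0.051 to 0.18 for HLA-C. For iMDK at 5 uM over vehicle in Huh6, it ran -0.12 to 0.14 for HLA-B and -0.10 to 0.073 for HLA-C. For iMDK at 10 uM over vehicle in Huh6, it ran -0.23 to 0.13 for HLA-B. For 10 over 5 uM iMDK in Huh6, it ran -0.25 to 0.11 for HLA-B. In THP-1 beside untreated Huh6 over THP-1 alone, it ran -0.064 to 0.16 for HLA-B, -0.090 to 0.16 for HLA-C, -0.35 to 0.033 for HLA-F, -0.060 to 0.15 for B2M, -0.061 to 0.12 for TAPBP and -0.032 to 0.10 for NLRC5. In THP-1 beside untreated HepG2 over untreated Huh6, it ran -0.0032 to 0.17 for TAPBP. In THP-1 beside HepG2 given 5 uM iMDK over untreated HepG2, it ran -0.20 to 0.018 for HLA-B and -0.17 to 0.078 for B2M. In THP-1 beside HepG2 given 10 uM over untreated HepG2, it ran -0.15 to 0.098 for B2M and -0.21 to 0.14 for TAPBP. In THP-1 beside Huh6 given 5 uM over untreated Huh6, it ran -0.16 to 0.087 for HLA-B, -0.15 to 0.12 for HLA-C, -0.026 to 0.12 for HLA-E, -0.15 to 0.24 for HLA-F, -0.12 to 0.076 for B2M and -0.15 to 0.076 for TAPBP. In THP-1 beside Huh6 given 10 uM over untreated Huh6, it ran -0.21 to 0.020 for HLA-C, -0.048 to 0.064 for HLA-E, -0.36 to 0.026 for HLA-F, -0.083 to 0.16 for TAPBP and -0.18 to 0.091 for NLRC5. For the difference between lines in response to 0.2 uM PKF118-310, it ran -1.49 to 0.56 for NLRC5. For the difference between lines in response to 5 uM iMDK, it ran -0.10 to 0.068 for TAPBP. For the difference between partner lines at 5 uM in THP-1, it ran -0.17 to 0.082 for HLA-B, -0.25 to 0.027 for HLA-C and -0.15 to 0.098 for B2M. For the difference between partner lines at 10 uM in THP-1, it ran -0.15 to 0.084 for HLA-B, -0.17 to 0.084 for HLA-C, -0.32 to 0.095 for HLA-F, -0.092 to 0.15 for B2M and -0.25 to 0.098 for TAPBP.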

Other observations

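Some MHC class II genes and natural killer ligands differed from vehicle in the tumour lines, in comparisons where 52.1% (Huh6, 10 uM iMDK), 54.6% (HepG2, 10 uM iMDK) and 67.7% (HepG2, 0.2 uM PKF118-310) of all genes were called, so the counts below set neither system apart. Among MHC class II genes in Huh6 at 10 uM iMDK, HLA-DPB1 rose by 1.15 ± 0.10 and HLA-DPA1 by 0.85 ± 0.23 on the log2 scale, and CD74 fell by 0.92 ± 0.04. HLA-DRB1 had 14 to 17 reads a library at 10 uM and 3 with vehicle, so it passed the filter through treated libraries and is given as reads only. In HepG2 at the same dose none of 3 tested class II genes rose and CD74 fell by 0.12 ± 0.04. Among the ligands of NKG2D, an activating receptor of natural killer and T cells, MICB rose by 0.31 ± 0.06 and ULBP1 by 2.51 ± 0.41 in HepG2 at 10 uM iMDK (2 of 4 tested), and in Huh6 MICB rose by 0.51 ± 0.13 and ULBP1 fell by 0.27 ± 0.10 (2 of 3 tested). In HepG2 at 0.2 uM PKF118-310, 2 of 4 NKG2D ligands rose (ULBP1, and ULBP3 by 1.56 ± 0.35) and MICB fell by 0.82 ± 0.07.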
